A study of Mus musculus with 76 samples.

Results

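Iron transport and storage was followed through 10 genes in bulk RNA from whole mouse tumors: *Trf*, *Tfrc*, *Steap3*, *Slc11a2*, *Slc11a1*, *Slc40a1*, *Cp*, *Fth1*, *Ftl1* and *Aco1*. They were taken by gene symbol from the table that pairs identifiers with names, and all 10 were among the 55536 genes counted. The question was whether the messages for iron handling differed with added catalase, and between the tumor lines, because iron sets how toxic hydrogen peroxide is to a cell.

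Iron travels in plasma bound to transferrin (*Trf*) and enters cells through the transferrin receptor (*Tfrc*). In the endosome it is reduced, by STEAP3 among others, and passes into the cytosol through the divalent metal transporter encoded by *Slc11a2*. Cytosolic iron is stored in ferritin, a shell of heavy (*Fth1*) and light (*Ftl1*) chains of which the heavy chain oxidizes iron to its safe form, or leaves the cell through ferroportin (*Slc40a1*), helped by the ferroxidase ceruloplasmin (*Cp*). Free ferrous iron reacts with hydrogen peroxide to give hydroxyl radicals (the Fenton reaction), which catalase prevents by removing the peroxide. Macrophages, which recycle iron from red cells, also carry the phagosomal transporter NRAMP1 (*Slc11a1*).

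Much of this system is controlled after transcription. The cytosolic aconitase encoded by *Aco1* loses its iron-sulfur cluster when iron is low, or when it is oxidized, and then binds RNA hairpins as iron regulatory protein 1. Binding in a 5′ UTR blocks translation, and binding in the 3′ UTR of *Tfrc* protects the message from decay. The hairpins are shown here because their position matters for counts of RNA. Sites in the 3′ UTR of *Tfrc* act on the message level, whereas sites in a 5′ UTR act on translation, which counts of RNA do not show. The search allowed no bulge in the stem and can miss sites, so it does not sort the members without a match. Hairpins with a loop of the letters CAGTGN, preceded by C and 5 bases and followed by 5 bases that pair with those 5 (G-U pairs allowed), were searched on the transcript strand of UTRs in GENCODE M21 on GRCm38, with the loop in capitals.
*Fth1*, 5′ UTR, chr19:9982738-9982754, plus strand: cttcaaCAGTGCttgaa
*Ftl1*, 5′ UTR, chr7:45459785-45459801, minus strand: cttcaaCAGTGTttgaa
*Slc40a1*, 5′ UTR, chr1:45925471-45925487, minus strand: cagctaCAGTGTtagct
*Tfrc*, 3′ UTR, chr16:32631225-32631241, plus strand: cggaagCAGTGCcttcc
*Tfrc*, 3′ UTR, chr16:32631604-32631620, plus strand: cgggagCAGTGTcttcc
*Tfrc*, 3′ UTR, chr16:32631669-32631685, plus strand: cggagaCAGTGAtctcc
*Tfrc*, 3′ UTR, chr16:32631716-32631732, plus strand: cgggaaCAGTGTttccc
The pattern was present in the 5′ UTR of 31 of 20597 genes with one (0.151%) and in the 3′ UTR of 129 of 20995 genes (0.614%). Of the members, 3 held it in the 5′ UTR and *Tfrc* held it 4 times in the 3′ UTR. A match is a description of the letters, and a member without a match lacks only these letters.

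The tumors were grown under the skin of female Balb/c mice aged 6 to 12 weeks by the study's methods, and 38 of them in 7 groups were sequenced. CT26 is a colorectal carcinoma line and 4T1 a mammary carcinoma line. In each, tumors were injected with 20 µg of CAT-ABP, catalase joined to an alum-binding peptide, together with 100 µg of alum (6 CT26 and 6 4T1 tumors), or with the 100 µg of alum alone (5 tumors of each line). This treatment is called extracellular catalase (EC CAT). By the labels, tumors were injected on day 6 and harvested on day 8, whereas the study's text places each step a day later. The 4T1-CAT line is 4T1 transduced by lentivirus with catalase and GFP under a doxycycline-inducible promoter, which is called intracellular catalase (IC CAT), and the 4T1-control line carries GFP alone. Mice with 4T1-CAT tumors received CAT-ABP + alum (5 tumors) or alum alone (5 tumors), and mice with 4T1-control tumors received alum (6 tumors). All 3 of these groups were on a doxycycline diet from day 4 by the labels, and the parental CT26 and 4T1 groups were not. Every tumor of the study, controls included, was therefore injected with alum. The mice were inoculated with 1000000 CT26 cells or with 500000 cells of a 4T1 line, so line and cell number cannot be told apart. The transgene is expressed in the tumor cells alone, whereas the RNA came from all cells of the tumor, so fewer cells of a type and less RNA per cell cannot be told apart.

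Each tumor was read as 2 technical libraries, whose counts were summed. Libraries held between 46233 and 6958626 counts and tumors between 493044 and 9077549. Of the 7 libraries under 0.25 of the median depth (518752 counts), 4 were from 4T1-control. The deposited sample table names no sequencing pool, and libraries whose index tags share their first part were taken as a pool. The same tag is given to 2 libraries, which share a first part, so the pools do not turn on it. Read in this way, the tags put all CT26 tumors, the 4T1 tumors given CAT-ABP + alum and 2 of the 5 4T1 alum tumors in a shared pair of sequencing pools, and the other 3 4T1 alum tumors and all engineered tumors in another pair. Values are CPM, counts scaled to 1000000 per tumor after the TMM method. The method reads transcripts near the 3′ end and counts are not per length, so levels are compared between tumors and never between genes. The summed level of 8 epithelial markers, keratins and junction genes, was between 41.1 and 85.8 CPM in CT26 tumors and between 1597 and 2936 CPM in tumors of the 4T1 lines, so the defining epithelial markers were low in CT26. The summed level of 6 hepatocyte markers was at most 2.42 CPM in any tumor, although *Trf* and *Cp* are best known as liver products.

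Between the tumor lines, 6 of the 10 members were called with alum, where 42.4% of all genes were called. With CAT-ABP + alum 8 members were tested and 6 called, where 45.5% of all genes were called. Of the members, 5 were called in both sets, and the alum call of *Slc40a1* depends on the filter, as given below. No member was called by edgeR or DESeq2 in any comparison of catalase treatment. In exact permutation tests of single members, 4 of 50 tests of catalase treatment had an unadjusted p under 0.05. All 10 had counts in each group, and only *Steap3* was at 0 in any tumor (2 of the 38). The ratio of the highest to the lowest group mean ran from 1.28 for *Fth1* to 7.45 for *Slc11a1*. The plot of CPM by tumor shows this for each gene.

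**Figure D1:**
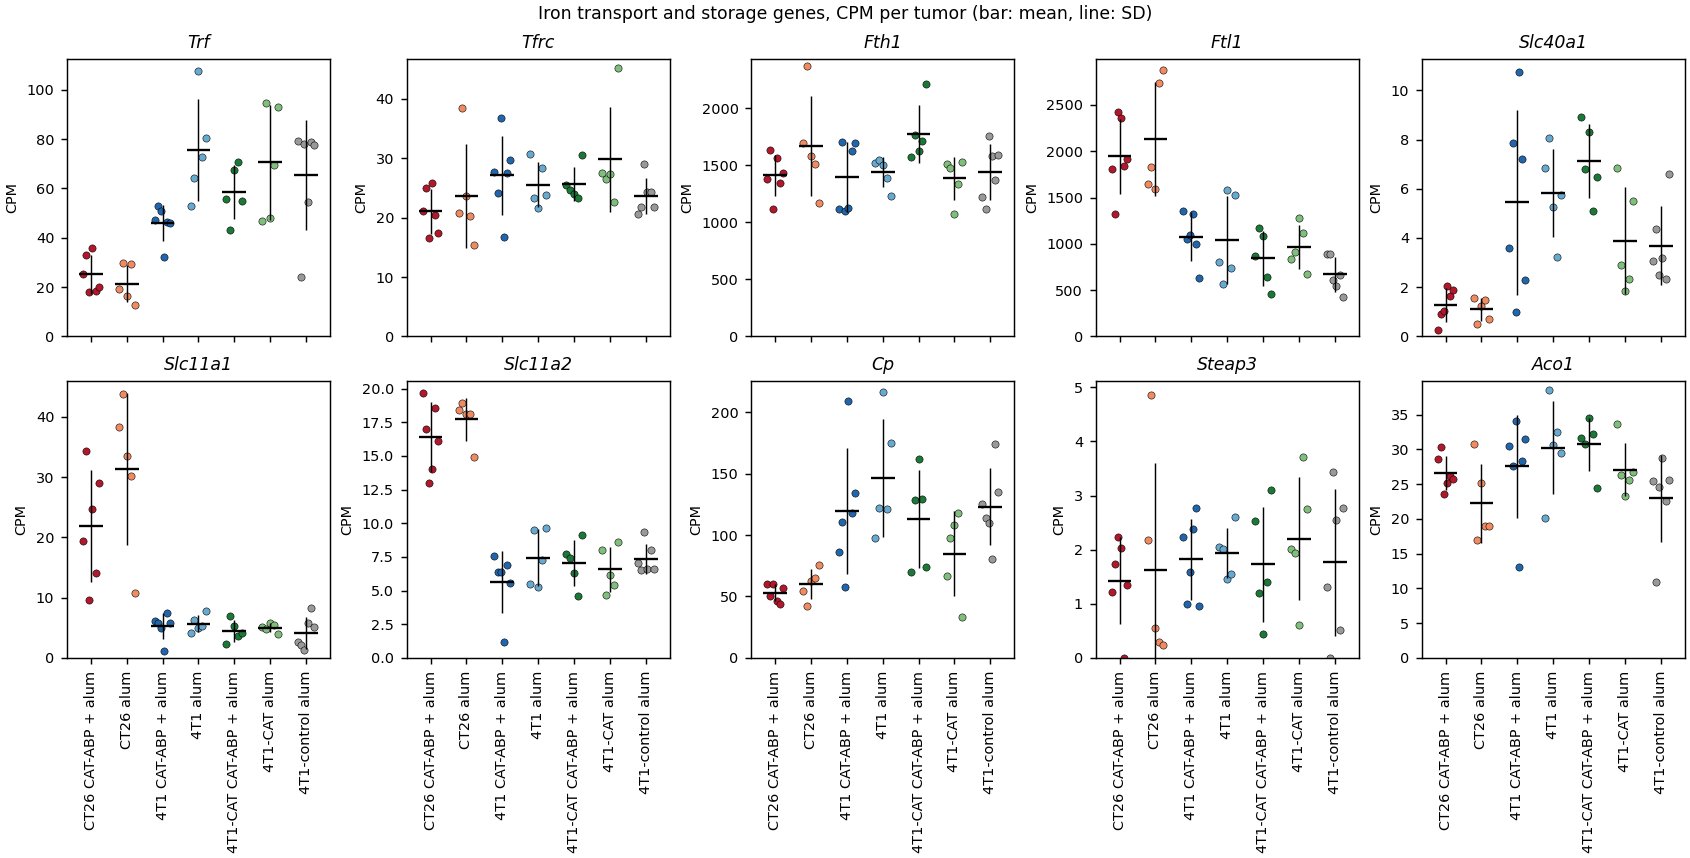
CPM of each member (y axis, from 0, a scale per gene) in each of the 38 tumors by group (x axis), with the group mean as a bar and the SD as a line. The CT26 tumors sit above all tumors of the 4T1 lines for *Slc11a1* and *Slc11a2*. Their medians are below those of the 4T1 lines for *Trf*, *Slc40a1* and *Cp*, and by a smaller share for *Tfrc*, *Fth1*, *Steap3* and *Aco1*.

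The lines were compared in 2 separate sets of tumors, those given alum and those given CAT-ABP + alum, which share no animal. With alum, the quasi-likelihood test of edgeR, with p adjusted by Benjamini-Hochberg over 12817 genes, called 6 of the 10 members at an adjusted p of 0.05, where 42.4% of all genes were called. Of these 6, *Slc40a1* passed the filter on low counts through the 4T1 tumors, where it was higher, so its call is not independent of the filter. With CAT-ABP + alum, 8 members, *Slc40a1* not among them, passed the filter and 6 of these 8 were called, where 45.5% of all 13016 genes were called. In each set 3 members were higher in CT26 and 3 lower, against 21.3% and 21.1% of all genes with alum and 21.8% and 23.7% with CAT-ABP + alum. With so many genes called, a call by itself sets no member apart, and the sizes are therefore given for each. The median log2 fold change over the members tested was -0.28 with alum and -0.07 with CAT-ABP + alum, and over all genes tested it was 0.02 and -0.02. Groups did not overlap for 6 of 10 members with alum and 2 of 10 with CAT-ABP + alum, where 29.9% and 22.3% of all genes tested did not overlap. For the members without overlap an exact, two-sided permutation of the tumors' log2 CPM gave p = 0.00794 with alum and p = 0.00216 with CAT-ABP + alum, the smallest values that 5 against 5 and 6 against 6 tumors allow, in a family of 80 such tests. The lack of overlap fixes these p values, so they are no further support. *Trf*, *Ftl1*, *Slc11a1*, *Slc11a2* and *Cp* were called in both sets, each with the same direction in both. That was 83.3% of the 6 members called in each set, and over all genes 4350 were called in both, 80.1% of those called with alum and 73.4% of those called with CAT-ABP + alum.

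Both members of the NRAMP family of metal transporters were higher in CT26. *Slc11a1* (ENSMUSG00000026177, chromosome 1 from 74375195 to 74386062) encodes NRAMP1, the proton-coupled pump that removes iron and manganese from phagosomes. With alum it had 38.3, 43.8, 33.5, 30.2 and 10.8 CPM in the CT26 tumors and 4.095, 6.32, 4.91, 5.38 and 7.84 CPM in the 4T1 tumors. The groups did not overlap, and 1 CT26 tumor, at 10.8, lay nearer to 4T1 than the rest. The difference was 5.44-fold on the linear scale and 2.44 as a log2 fold change, with a standard error (SE) of 0.31 and an adjusted p of 1.54e-05 in edgeR. With CAT-ABP + alum the CT26 tumors had from 9.54 to 34.4 CPM (median 22.1, n = 6) and the 4T1 tumors from 1.19 to 7.50 (median 5.79, n = 6), a log2 fold change of 1.89 (SE 0.29, adjusted p = 3.72e-05 in edgeR). All 11 CT26 tumors were above all 27 tumors of the 4T1 lines, whose highest value was 8.28 CPM.

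Because *Slc11a1* is a gene of phagocytes, the levels of their markers are given beside it. The summed CPM of 10 macrophage markers was between 1000 and 1444 in CT26 tumors and between 675 and 1301 in tumors of the 4T1 lines. Of the 10 markers, 3 were called higher in CT26 with alum and 6 with CAT-ABP + alum, and none lower. That was 30% and 60%, beside 42.4% and 45.5% of all genes called in either direction. The median log2 fold change of these markers was 0.74 and 0.65. The summed CPM of 8 neutrophil markers was between 64.3 and 172 in CT26 and between 107 and 357 in the 4T1 lines. Of the 6 neutrophil markers tested, 1 was called higher and 1 lower in CT26 with alum (33.3%). With CAT-ABP + alum 2 were called higher and 1 lower (50%). Their part in the *Slc11a1* difference was not tested.

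*Slc11a2* (ENSMUSG00000023030, chromosome 15 from 100387898 to 100425072) encodes DMT1, which carries ferrous iron out of the endosome and across the gut wall. With alum it had 18.4, 19.0, 18.1, 18.2 and 14.9 CPM in CT26 and 5.46, 9.48, 5.28, 7.29 and 9.67 CPM in 4T1. No 4T1 tumor reached the CT26 range. Its log2 fold change was 1.25 (SE 0.20, 2.39-fold, adjusted p = 0.000149 in edgeR) with alum and 1.38 (SE 0.20, 2.60-fold, adjusted p = 2.18e-05 in edgeR) with CAT-ABP + alum. As for *Slc11a1*, all 11 CT26 tumors lay above all 27 tumors of the 4T1 lines, with the lowest CT26 value at 12.995 CPM and the highest of the 4T1 lines at 9.67.

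The ferritin chains parted. *Ftl1* (ENSMUSG00000050708, chromosome 7 from 45457944 to 45459884), the light chain that seeds the iron core, had 1643, 1828, 1594, 2734 and 2873 CPM in CT26 and 804, 562, 1585, 736 and 1525 CPM in 4T1 with alum. The groups did not overlap, but the lowest CT26 and the highest 4T1 tumor were close, at 1594 and 1585. For *Ftl1* the log2 fold change was 1.03 (SE 0.30, adjusted p = 0.0108 in edgeR) with alum and 0.81 (SE 0.20, adjusted p = 0.00276 in edgeR) with CAT-ABP + alum, and 10 of the 11 CT26 tumors were above every tumor of the 4T1 lines. *Fth1* (ENSMUSG00000024661, chromosome 19 from 9980598 to 9985098), the heavy chain with the ferroxidase site, was not called in either set. It had 1664 ± 438 CPM (SD, n = 5) in CT26 and 1438 ± 130 (SD, n = 5) in 4T1 with alum, a log2 fold change of 0.21 with a 95% interval from -0.17 to 0.60. With CAT-ABP + alum the interval was -0.33 to 0.29. Reads of ferritin genes can be shared with their copies. Of 10 genes and pseudogenes found by ferritin names, 4 had no count. The highest, *Ftl1-ps1*, had 606 counts over all 38 tumors, whereas *Ftl1* had at least 410 in each. Copies under other names were not searched, so reads shared with those are not covered.

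Transferrin, ceruloplasmin and ferroportin were lower in CT26. *Trf* (ENSMUSG00000032554, chromosome 9 from 103204001 to 103230444), the plasma iron carrier, had 19.2, 29.7, 16.3, 29.3 and 12.8 CPM in CT26 and 52.9, 64.4, 108, 72.6 and 80.5 CPM in 4T1 with alum. Every CT26 tumor was below every 4T1 tumor, and the log2 fold change was -1.86 (SE 0.24, adjusted p = 1.58e-05 in edgeR). With CAT-ABP + alum the change was smaller, -0.92 (SE 0.18, adjusted p = 0.000375 in edgeR), and the groups touched, with CT26 tumors from 18.1 to 35.8 CPM (median 22.7) and 4T1 tumors from 32.2 to 52.8. The difference between the sets was itself tested, as the interaction of line and treatment, and was not called (0.96, SE 0.31, unadjusted p = 0.00437, adjusted p = 1.00 in edgeR).

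*Cp* (ENSMUSG00000003617, chromosome 3 from 19957054 to 20009145) had 54.2, 42.3, 62.9, 65.3 and 75.4 CPM in CT26 and 98.0, 122, 216, 122 and 175 CPM in 4T1 with alum. The groups did not overlap, and the log2 fold change was -1.28 (SE 0.21, adjusted p = 0.000171 in edgeR) with alum and -1.19 (SE 0.23, adjusted p = 0.000477 in edgeR) with CAT-ABP + alum. Across all tumors the ranges met, since 1 4T1-CAT tumor had 32.996 CPM, below the lowest CT26 tumor.

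*Slc40a1* (ENSMUSG00000025993, chromosome 1 from 45908068 to 45926523), the only known exporter of iron, was scarce in CT26. Its counts there were between 1 and 10 per tumor, and its call with alum depends on the filter, as given above. With alum it had 1.58, 0.486, 1.23, 1.46 and 0.723 CPM in CT26 and 6.83, 8.05, 5.28, 3.23 and 5.75 CPM in 4T1, which do not overlap (log2 fold change -2.27, SE 0.37, adjusted p = 0.000147 in edgeR). With CAT-ABP + alum it was below the filter and had no edgeR test. CT26 tumors then had from 0.243 to 2.04 CPM (median 1.32) and 4T1 tumors from 0.992 to 10.7 (median 5.40), and 2 of 6 CT26 tumors were below all 4T1 tumors (exact permutation p = 0.0173, of the same family).

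The receptor, the reductase and the regulator were not called with alum. *Tfrc* (ENSMUSG00000022797, chromosome 16 from 32608920 to 32632794), the receptor for loaded transferrin, had 23.7 ± 8.75 CPM (SD, n = 5) in CT26 and 25.6 ± 3.81 (SD, n = 5) in 4T1 with alum, a log2 fold change of -0.14 with a 95% interval from -0.55 to 0.28. With CAT-ABP + alum it was called lower in CT26 (log2 fold change -0.42, SE 0.16, adjusted p = 0.0421 in edgeR), from 16.6 to 25.8 CPM (median 20.8, n = 6) against 16.7 to 36.7 (median 27.7, n = 6). The groups overlap. The lowest 4T1 tumor, replicate 4, had 14 counts of *Tfrc*, and the next lowest 4T1 tumor was at 24.1 CPM. The call was lost in 14 of 22 alternative settings, with adjusted p values from 0.0168 to 0.165. *Aco1* (ENSMUSG00000028405, chromosome 4 from 40143081 to 40198338) had a log2 fold change of -0.43 (95% interval -0.81 to -0.04, adjusted p = 0.0915 in edgeR) with alum and -0.13 (95% interval -0.42 to 0.17) with CAT-ABP + alum. *Steap3* (ENSMUSG00000026389, chromosome 1 from 120190757 to 120272705), an endosomal ferrireductase, had at most 28 counts in any tumor and was tested with alum alone (log2 fold change -0.48, 95% interval -1.68 to 0.72).

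The line differences were also taken within the pair of sequencing pools that held all CT26 tumors and 2 of the 5 4T1 alum tumors, a setting chosen after the data were seen. There too a call by itself sets no member apart, and that of *Slc40a1* had the same dependence on the filter. *Trf* had a log2 fold change of -1.49 (adjusted p = 0.00304 in edgeR) and *Ftl1* of 1.63 (adjusted p = 0.00473 in edgeR). With CAT-ABP + alum all tumors were in that pair of pools. Cell content also moved with the line. With alum the 7 epithelial markers tested were all called lower in CT26, with a median log2 fold change of -6.02. Within CT26 alone 4 of the 8 listed passed the filter. Some were thus tested between the lines through the 4T1 tumors, where they were higher, and those calls are not independent of the filter. Of 8 fibroblast markers 5 were called lower and 1 higher. All 6 T cell markers tested were called higher, and within 4T1 alone 5 passed the filter. Of all genes 42.4% were called. The part of these cell types in the members' differences was not tested.

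**Figure D2:**
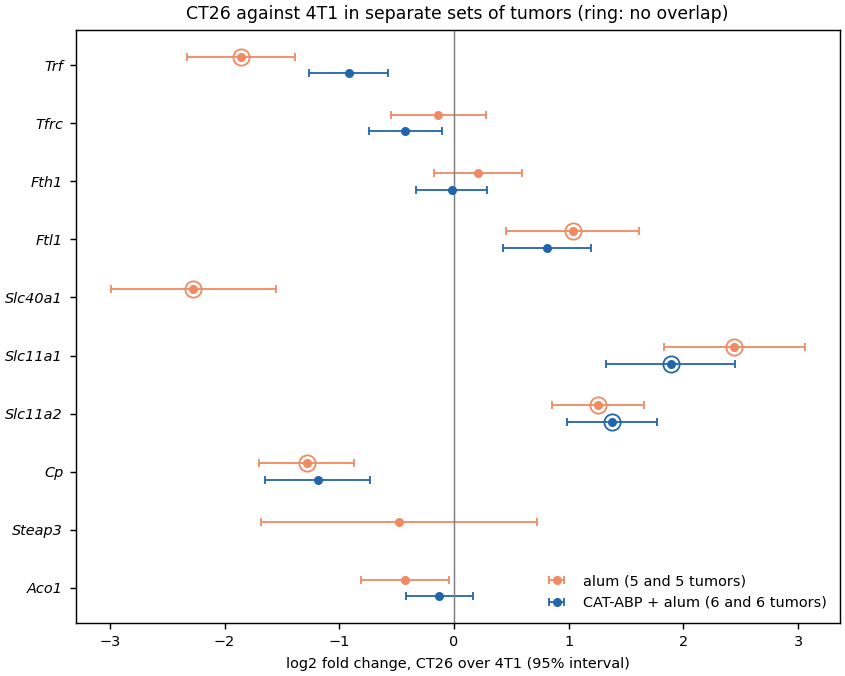
Log2 fold change of CT26 over 4T1 (x axis) for each member (y axis) with its 95% interval, in the tumors given alum and in those given CAT-ABP + alum, from edgeR's quasi-likelihood test. *Slc11a1*, *Slc11a2* and *Ftl1* lie to the right of 0 and *Trf* and *Cp* to the left in both sets, while the intervals of *Fth1* span 0.

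Of 66 other genes of iron handling, 51 were tested with alum and 53 with CAT-ABP + alum. With alum 11 were called higher in CT26 and 5 lower, and with CAT-ABP + alum 14 and 11. That was 31.4% and 47.2% of those tested, beside 42.4% and 45.5% of all genes. Within CT26 alone 49 of the 66 passed the filter. Some were thus tested between the lines through the 4T1 tumors, where they were higher. Those calls, in these counts and in the lists below, are not independent of the filter. Of 12 uptake genes and plasma carriers, 10 were tested with alum and 9 with CAT-ABP + alum. In each set 3 were called higher and 2 lower (50% and 55.6% of those tested). The metalloreductases *Steap1* (90.2 ± 6.04 CPM in CT26 against 23.9 ± 5.28 in 4T1 with alum, SD, n = 5 each) and *Steap2* were higher, by log2 1.91 and 1.02 with alum (adjusted p = 8.78e-08 and 8.22e-06 in edgeR). The second transferrin receptor *Tfr2* was higher by 1.16 (adjusted p = 0.000126 in edgeR). *Lcn2*, the siderophore-binding lipocalin, had a log2 fold change of -1.84 with alum and -1.49 with CAT-ABP + alum, and *Slc39a8*, a zinc and iron importer, of -1.90 and -1.87. *Slc39a14*, its relative, was not called in either set.

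Of 20 heme genes, 17 were tested with alum and 3 were called, all higher (17.6%, beside 42.4% of all genes). With CAT-ABP + alum 19 were tested, and 5 were called higher and 3 lower (42.1%, beside 45.5% of all genes). *Blvrb*, a biliverdin reductase, had 77.7 ± 8.11 CPM in CT26 and 13.5 ± 1.33 in 4T1 with alum (SD, n = 5 each), a log2 fold change of 2.52 (adjusted p = 1.53e-09 in edgeR). The heme transporter *Slc48a1* and the hemopexin receptor *Lrp1* had log2 fold changes of 1.03 and 0.92 with alum. With CAT-ABP + alum *Slc46a1*, a folate and heme transporter, and *Hp*, haptoglobin, had log2 fold changes of -1.08 and -1.10. *Hmox1*, the heme oxygenase that releases iron from heme, was called in no comparison, with group means from 16.7 to 24.4 CPM.

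Among 17 genes of mitochondrial iron and iron-sulfur assembly, 4 were higher and 2 lower with alum, and 5 and 2 with CAT-ABP + alum. That was 35.3% and 41.2%, beside 42.4% and 45.5% of all genes. *Bola3* and *Cisd1* had log2 fold changes of 1.47 and 0.98 with alum, and *Hscb*, an iron-sulfur co-chaperone, of 1.17 with CAT-ABP + alum. Of 7 genes of storage, chaperones and control, *Pcbp2*, a chaperone that delivers iron to ferritin, was higher in both sets (0.94 and 1.13). With CAT-ABP + alum *Ncoa4*, which takes ferritin to the lysosome, and *Ireb2*, the second iron regulatory protein, had log2 fold changes of -0.39 each (adjusted p = 0.0182 and 0.0250 in edgeR). Few of the 10 genes of export and its hormonal control had enough counts. *Id1*, a target of the BMP signal that drives hepcidin, was lower in both sets (-1.27 and -0.88), and *Erfe*, the erythroid hormone erythroferrone, had 0.183 ± 0.287 CPM in CT26 and 4.28 ± 1.72 in 4T1 with CAT-ABP + alum (SD, n = 6 each). *Erfe* passed the filter through the 4T1 tumors, where it was higher, so its call is not independent of the filter. *Hamp*, hepcidin, was at 0 in all 38 tumors.

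The comparisons of treatment share groups: 4T1 with alum, 4T1-CAT with alum, 4T1-CAT with both catalases and 4T1-control each serve in more than 1, so their values are given side by side and not as separate support. No cell-type marker and none of the other iron genes tested was called by edgeR in any of them. Extracellular catalase was tested first in CT26, as CAT-ABP + alum against alum. None of the 8 members tested was called by edgeR, as none of all 12830 genes was (0%), and 0 of the 8 had an unadjusted p under 0.05, against 2.42% of all genes. DESeq2 called no member and 1 gene. The median log2 fold change of the members was -0.14. The largest difference was that of *Slc11a1*, with 21.9 ± 9.33 CPM (SD, n = 6) against 31.3 ± 12.6 (SD, n = 5) and a 95% interval of the log2 fold change from -1.18 to 0.15. For *Fth1* the interval was -0.61 to 0.12 and for *Tfrc* -0.56 to 0.28. No member's groups were apart, where 0.296% of all genes were.

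In parental 4T1 the same treatment gave no call among 13092 genes (0%) in edgeR or DESeq2, and 1 of 10 members had an unadjusted p under 0.05, against 2.88% of all genes. That member was *Trf*. It had from 32.2 to 52.8 CPM with CAT-ABP + alum (median 46.9, n = 6) and 52.9, 64.4, 108, 72.6 and 80.5 CPM with alum. All 6 treated tumors were below all 5 alum tumors, but by as little as the distance from 52.8 to 52.9 CPM, and *Trf* was the 1 member of 10 without overlap, where 0.367% of all genes had none. The log2 fold change was -0.71 (SE 0.17, 95% interval -1.04 to -0.39), with an unadjusted p of 0.000427 and an adjusted p of 0.999 in edgeR. The exact permutation p, unadjusted, was 0.00433, the smallest that 6 against 5 tumors allow, in the family of 80 tests. The lack of overlap fixes this value.

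The sequencing pools moved with this difference. The 2 alum tumors in the same pools as the treated tumors had a mean of 58.6 CPM *Trf* and the 3 in the other pools 86.9 CPM. Within the shared pools the log2 fold change was -0.33 (adjusted p = 0.991 in edgeR), and with the pool as a block it was -0.33 (adjusted p = 0.984 in edgeR). In CT26 the log2 fold change of *Trf* was 0.26 (95% interval -0.24 to 0.75). The difference between the lines' responses, 0.96, became 0.59 with the pool as a block. *Tfrc* (95% interval -0.19 to 0.43), *Fth1* (-0.37 to 0.27) and *Ftl1* (-0.47 to 0.55) were not called in 4T1.

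**Figure D3:**
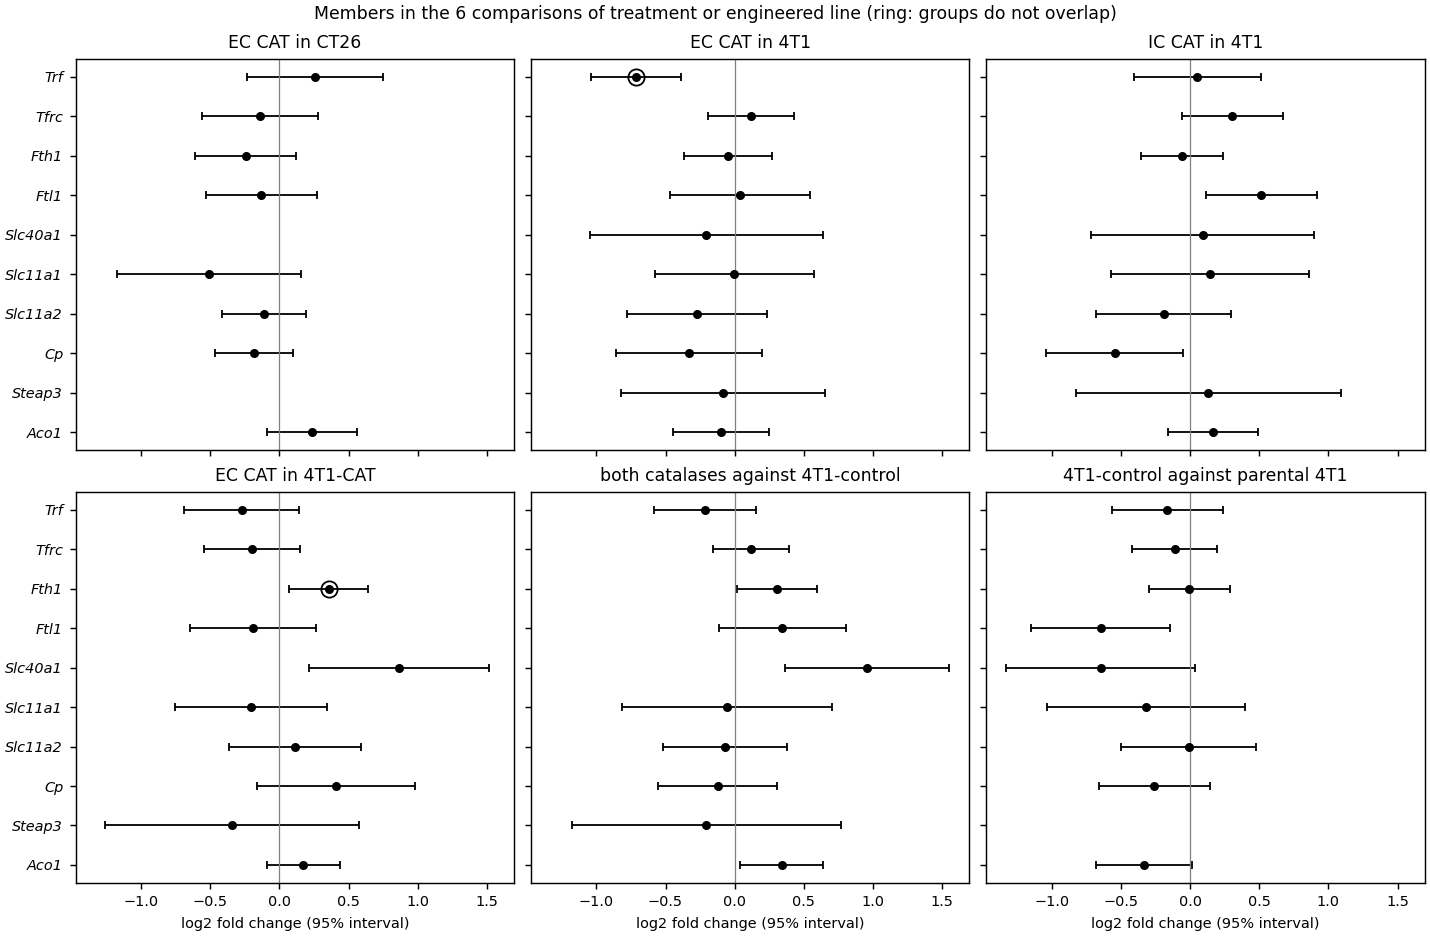
Log2 fold change (x axis) with its 95% interval for each member (y axis) in the comparisons of catalase treatment and of the engineered control, from edgeR's quasi-likelihood test. No interval belongs to a called member, and the one farthest from 0 relative to its width is *Trf* in 4T1.

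Intracellular catalase was tested as 4T1-CAT against 4T1-control, both given alum and doxycycline. No member and none of 12534 genes was called by edgeR (0%), DESeq2 called no member and 6 genes, and 2 of 10 members had an unadjusted p under 0.05, against 5.08% of all genes. *Ftl1* had 840, 915, 1280, 1114 and 680 CPM in 4T1-CAT and from 425 to 896 in 4T1-control (median 634, n = 6). Of the 5 4T1-CAT tumors, 3 lay above all control tumors, and the fitted log2 fold change was 0.52 (SE 0.21, 95% interval 0.11 to 0.92, unadjusted p = 0.0224, adjusted p = 0.847 in edgeR). *Cp* had 84.6 ± 34.6 CPM (SD, n = 5) against 123 ± 31.0 (SD, n = 6), a log2 fold change of -0.54 (95% interval -1.04 to -0.05, adjusted p = 0.976 in edgeR). The groups overlapped for every member, where 0.63% of all genes did not.

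Adding CAT-ABP to 4T1-CAT tumors gave no call among the members or the 13093 genes in edgeR (0%), although 15.3% of all genes had an unadjusted p under 0.05 and DESeq2 called 218 genes, none a member. Of the members, 2 of 10 had an unadjusted p under 0.05. *Fth1* had 1572, 1765, 1626, 1708 and 2207 CPM with CAT-ABP + alum and 1508, 1478, 1071, 1332 and 1532 CPM with alum. Every treated tumor was above every alum tumor, and *Fth1* was the 1 member of 10 without overlap, where 2.91% of all genes had none. The exact permutation p, unadjusted, was 0.00794, the smallest possible, which the lack of overlap fixes. The log2 fold change was 0.36 (SE 0.15, 95% interval 0.07 to 0.64, adjusted p = 0.274 in edgeR). With each tumor left out in turn it was between 0.27 and 0.41. The light chain *Ftl1* had a log2 fold change of -0.19 (95% interval -0.65 to 0.27).

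*Slc40a1* had 8.91, 6.82, 8.31, 5.11 and 6.47 CPM with CAT-ABP + alum and 6.85, 2.92, 1.84, 2.32 and 5.50 CPM with alum in 4T1-CAT. All 5 treated tumors exceeded the alum median but the groups overlapped. The log2 fold change was 0.86 (SE 0.33, 95% interval 0.21 to 1.51, adjusted p = 0.251 in edgeR), and it was 0.25 in technical replicate 1 alone. Against 4T1-control, which shares the treated tumors with that comparison, *Slc40a1* had 7.13 ± 1.51 CPM (SD, n = 5) against 3.68 ± 1.60 (SD, n = 6), a log2 fold change of 0.96 (SE 0.30, 95% interval 0.36 to 1.55, adjusted p = 0.126 in edgeR, exact permutation p = 0.0130). The lowest adjusted p over the alternatives was 0.0550, without 4T1-control replicate 6.

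**Figure D4:**
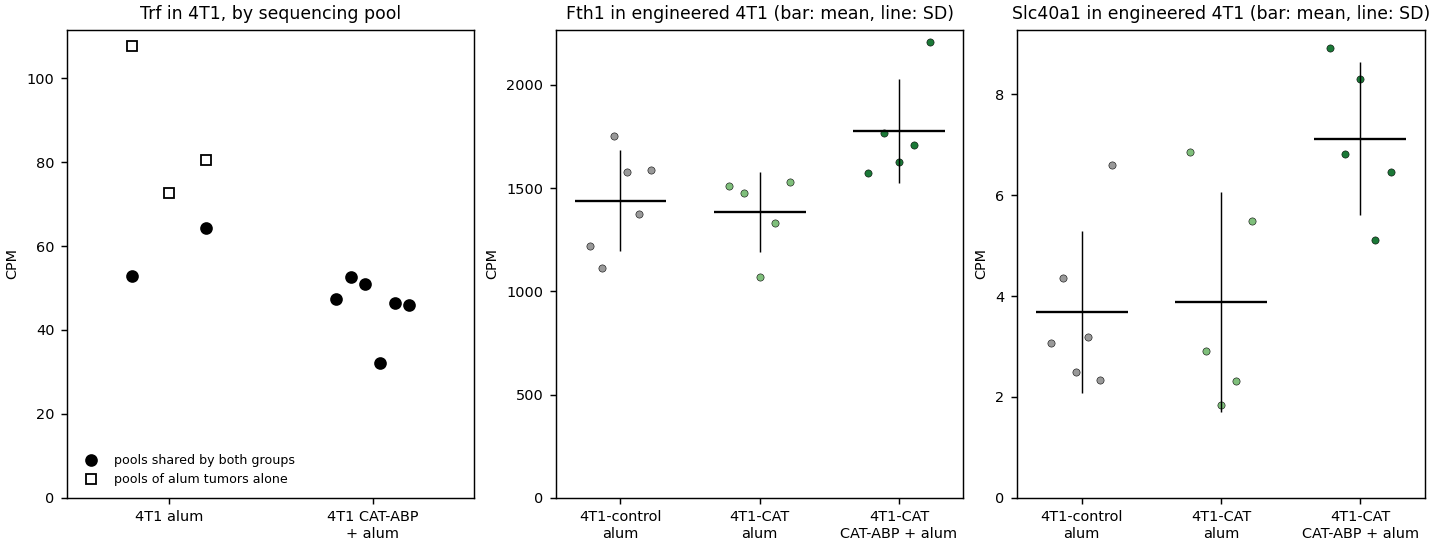
CPM in each tumor (points, y axis from 0) in the groups compared (x axis), for *Trf* in 4T1 by sequencing pool, and for *Fth1* and *Slc40a1* in engineered 4T1 with group mean and SD. The treated tumors lie below the alum tumors for *Trf* in 4T1 and above them for *Fth1* in 4T1-CAT, and they overlap for *Slc40a1*.

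With both catalases against 4T1-control, 0 of 10 members and 3 of 12781 genes (0.0235%, with 0.0156% higher and 0.00782% lower) were called by edgeR, and 487 genes and no member by DESeq2. Of the members, 2 of 10 had an unadjusted p under 0.05, against 16.9% of all genes. Besides *Slc40a1*, *Aco1* had 30.7 ± 3.76 CPM (SD, n = 5) against 23.0 ± 6.24 (SD, n = 6), a log2 fold change of 0.34 (95% interval 0.04 to 0.64, adjusted p = 0.263 in edgeR). The lowest control tumor, at 10.9 CPM, was also the shallowest, with 493044 counts. No member's groups were apart, where 1.98% of all genes were.

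The engineered control line was set against parental 4T1, both with alum, where transduction and doxycycline changed together and cannot be told apart. All 9 members tested had log2 fold changes below 0, with a median of -0.26 against -0.01 over all genes, but none was called by edgeR or DESeq2. For *Fth1* (-0.0048) and *Slc11a2* (-0.0093) the value was close to 0, and its sign changed in 16 of 23 and 13 of 22 alternative settings. By edgeR 0% of 12431 genes was called, and by DESeq2 15 genes. *Ftl1*, the 1 member with an unadjusted p under 0.05 (10.5% of all genes), had from 425 to 896 CPM in 4T1-control and 804, 562, 1585, 736 and 1525 CPM in 4T1. Both high 4T1 values came from the pools shared with 4T1-control. Its log2 fold change was -0.65 (SE 0.26, adjusted p = 0.359 in edgeR), and it was -0.91 within shared pools. Without the filter on low counts it was called (-0.69, adjusted p = 0.0245 in edgeR). No member's groups were apart, where 1.16% of all genes were.

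The balance of uptake and export was described as the log2 ratio of *Tfrc* to *Slc40a1* counts, each plus 0.5, and that of storage as the log2 ratio of *Fth1* to *Ftl1*. These ratios change with the genes' 3′ capture, so they are compared between groups and carry no test. The *Tfrc* over *Slc40a1* ratio was 4.28 ± 0.85 (SD, n = 5) and 4.13 ± 1.00 (SD, n = 6) in the CT26 groups and between 1.85 and 3.03 on average in the 5 groups of the 4T1 lines. The lowest was 4T1-CAT with CAT-ABP + alum, 1.85 ± 0.34 (SD, n = 5), against 3.03 ± 0.65 (SD, n = 5) with alum. The *Fth1* over *Ftl1* ratio was below 0 on average in CT26, -0.35 ± 0.70 (SD, n = 5) and -0.45 ± 0.46 (SD, n = 6), and between 0.38 and 1.14 on average in the groups of the 4T1 lines. The tumors of the 4T1 lines and CT26 overlapped for both ratios.

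**Figure D5:**
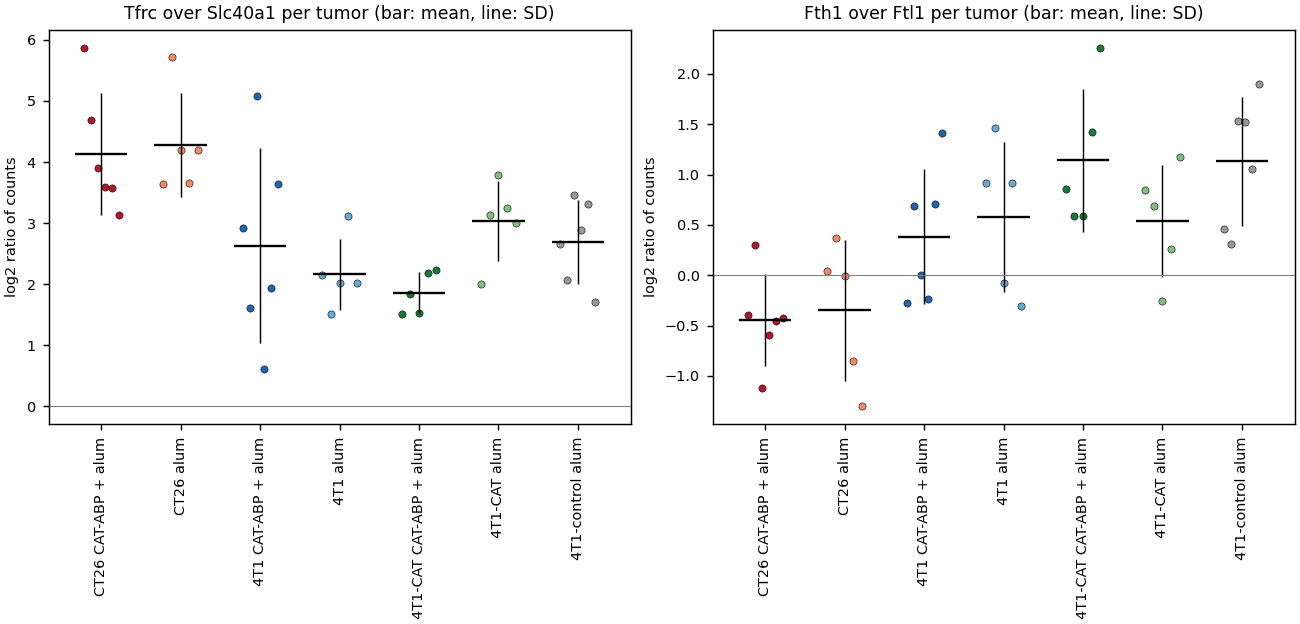
Log2 ratio of *Tfrc* to *Slc40a1* counts and of *Fth1* to *Ftl1* counts (y axes) in each tumor by group (x axis), with the group mean and SD. The CT26 groups have the highest *Tfrc* over *Slc40a1* means and the lowest *Fth1* over *Ftl1* means.

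Across the 38 tumors, with the group means removed, *Tfrc* and *Cp* moved in opposite directions (Pearson's r = -0.727, Spearman's rho = -0.640, and r = -0.670 without the 2 tumors farthest from the median), as did *Fth1* and *Ftl1* (r = -0.627, rho = -0.675). These points share library depth and are a description. The genes most like each member by r, of 11268 genes searched, included *Hmox1* for *Slc40a1* (r = 0.591, rho = 0.596), *Spp1* for *Cp* (r = 0.783, rho = 0.779), *Atp6ap1* for *Trf* (r = 0.813, rho = 0.777), *Plbd1* for *Slc11a1* (r = 0.754, rho = 0.681) and *Dctn1* for *Fth1* (r = 0.888, rho = 0.880). For *Ftl1* it was *Gm22133* (r = 0.948, rho = 0.948). The SD between the 2 technical libraries of a tumor is given beside the SD between tumors of a group, in log2. The first was taken on single libraries without TMM scaling and the second on summed, scaled counts, so they are not on one scale. They were 1.17 and 0.69 for *Slc40a1*, 0.75 and 0.44 for *Slc11a2*, 0.57 and 0.31 for *Tfrc* and 0.53 and 0.35 for *Aco1*. For *Trf* they were 0.33 and 0.46 and for *Ftl1* 0.33 and 0.45. With low-depth libraries left out the technical SD was 0.43 for *Tfrc* and 0.43 for *Aco1*.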

How the data were processed

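Whole-tumor RNA was sequenced by a 3′ digital gene expression method on a NextSeq, and the authors processed the reads with a Smart-seq2 pipeline on Terra. The deposited values are estimated counts per gene, not normalized, and among values above 0 a share of 39.7% had a fractional part. The authors left out some technical replicates for low depth without naming them, so all 76 libraries were kept here. The table holds mouse genes, so the transgene was not measured.

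The 2 libraries of each tumor were summed and rounded to whole numbers, giving 38 tumors in 7 groups from the labels. The labels and the study's methods call the tumors of a group biological replicates. Each comparison was fitted to its own groups with edgeR 4.0.16 (R 4.3.3): filterByExpr, TMM scaling, the quasi-likelihood test, and Benjamini-Hochberg adjustment over all genes tested at 0.05. The SE of a log2 fold change was taken as its size divided by the square root of the test's F statistic. Intervals are 95% normal intervals on that SE. They allow nothing for the limited degrees of freedom, so they are narrower than the test implies. Single members were also tested with two-sided exact permutation tests on log2 CPM with a prior count of 2 (SciPy 1.17.1). The fits were tested on simulated data. Alternatives used DESeq2 1.42.0, limma 3.58.1, other filters and scalings, single technical replicates, the sequencing pool or replicate number as a block, libraries under 518752 counts left out, and each tumor left out. Within-pool fits were added after the data were seen. The depth of a tumor, 493044 to 9077549 counts, limits the scarce members most.

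All 10 members are named. Of 66 other iron genes, up to 3 per list with the smallest adjusted p in a comparison are named, plus *Hmox1*, *Slc39a14*, *Lcn2*, *Ncoa4*, *Ireb2* and *Hamp*, and for each member genes with the highest r among those with a mean of at least 20 counts. 1 gene that this rule would name is not reported here. The members and lists were chosen with earlier results of these data known. Hairpins were read from GENCODE M21 transcripts on GRCm38. Replicate numbers did not pair the samples: the correlation of same-numbered tumors' deviations ran from -0.41 to 0.46, and in no comparison were all pairs above 0.1.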

Additional observations from a re-analysis of the deposited data

Results flagged for a closer look

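Of 70 checks, each of 1 member in 1 group of 5 or 6 tumors, 6 had a tumor far from the others by Dixon's criterion, where chance gives about 1 in 20. Of these 6, 3 were replicate 4 of 4T1 with CAT-ABP + alum, a tumor with 837403 counts. It was low for *Trf* (32.2 CPM, the next 45.98), *Slc11a2* (1.19 CPM, the next 5.53) and *Aco1* (13.1 CPM, the next 27.6), and it had the highest *Slc40a1* (10.7 CPM) and *Cp* (209 CPM) of its group. *Aco1* was also low in 4T1-control replicate 2 (10.9 CPM, the next 22.5), a tumor with 493044 counts. *Tfrc* was high in 4T1-CAT with alum, replicate 5 (45.2 CPM, the next 27.6). *Slc11a2* was low in CT26 with alum, replicate 5 (14.9 CPM, the next 18.1), and that tumor was still above every tumor of the 4T1 lines. The part of depth in these values was not tested.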

How the results depend on the processing

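No member's called direction reversed. Over the member values, 2024 alternatives kept direction and side of the threshold and, where not called, stayed within the SE of the main fit. Another 107 stayed within that SE but changed sign. A further 46 moved by more than that SE, and 12 of these 46 changed sign. Neither the 107 nor the 46 were called before or after. A call was lost in 14 (all *Tfrc* in CT26 against 4T1 with CAT-ABP + alum) and gained in 4. The 4 were *Aco1* in CT26 against 4T1 with alum (lowest adjusted p = 0.0323 in edgeR, without CT26 alum replicate 1) in 3 settings, and *Ftl1* in 4T1-control against parental 4T1, where 1 member was called without the filter on low counts. The cause was not tested.

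Counts of called genes depended more on the settings. With DESeq2 they were 1 (EC CAT in CT26), 6 (IC CAT), 218 (EC CAT in 4T1-CAT), 487 (both catalases) and 15 (4T1-control against 4T1). Without the filter they were 1 (EC CAT in CT26), 16 (EC CAT in 4T1), 131 (IC CAT), 47 (EC CAT in 4T1-CAT), 532 (both catalases) and 130 (4T1-control against 4T1), and 2 and 1 for the differences between responses to EC CAT. With limma voom they were 1 in CT26, 10 in 4T1-CAT, 331 with both catalases and 12 for 4T1-control. One model over 7 groups gave 31 with both catalases and 10 for 4T1-control, and leaving out low-depth libraries gave 142 and 14. With both catalases, technical replicate 1 alone gave 0 and technical replicate 2 alone 1. Technical replicate 2 alone gave 2849 and 3559 genes between the lines with alum and with CAT-ABP + alum. Within shared pools 4T1-control gave 1.

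With 1 tumor left out, called genes ranged from 0 to 1 for IC CAT and for EC CAT in 4T1-CAT, from 0 to 575 with both catalases (575 without 4T1-control replicate 3, 131 without replicate 2), from 0 to 6 for 4T1-control, from 4823 to 5718 between the lines with alum and from 5396 to 6421 with CAT-ABP + alum. Members called ranged from 6 to 7 and from 5 to 7 between the lines. With the replicate number as a block, 0 members were called in the treatment comparisons, 6 between the lines with alum and 5 with CAT-ABP + alum, and genes called were 3 for EC CAT in 4T1-CAT and 1 with both catalases.

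Depth limits *Slc40a1* (1 to 73 counts per tumor) and *Steap3* (0 to 28) most, and the intervals cover the spread between tumors of 1 experiment.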
